A study of Mus musculus with 384 samples.

Results

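The mice described here are 23 male Diversity Outbred mice whose liver expressed a pair of genes that are normally much higher in females, Cyp2a4 and Cyp2b9. They were chosen from these measurements. Each male was given a score, the mean of log2(signal + 0.06) of Cyp2a4 and Cyp2b9, and the males were ranked by it within each diet. The 12 highest of 48 chow males and the 11 highest of 46 high fat males form the high-score group. The 12 lowest and 11 lowest form the low-score group of 23, and the other 48 males are called middle-score males. In all, 94 males and 98 females make up the 192 mice of the study. The question put to the data was whether the rest of the sex-dependent liver programme differed between high-score and low-score males, with both score genes left out.

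Liver RNA was measured in wild type mice of an outbred stock at 26 weeks of age. From weaning on they had free access to either standard chow with 6% fat by weight or a high-fat chow with 22%. Each mouse also carried an outbreeding generation label, G11L1 or G11L2, whose meaning is not given in the sources used here, and a coat colour. Every mouse is a genetically distinct animal, so the spread between mice includes inherited differences, and no DNA genotypes were used here.

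In rodents the pituitary releases growth hormone in separated pulses in males and more continuously in females, and hepatocytes read this pattern through the growth hormone receptor and STAT5b. Many genes for steroid and drug metabolism, organic anion transport and secreted proteins of the liver are therefore expressed at different levels in the sexes. Among the transcription factors in this system, CUX2 is made in female liver and BCL6 is more abundant in male liver. The Cyp2a and Cyp2b genes encode cytochrome P450 enzymes that hydroxylate steroids and foreign compounds, and several of them lie side by side on chromosome 7.

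The high-score and low-score groups were alike in what the labels record. High-score males were 12 G11L1 and 11 G11L2 mice, and low-score males 11 and 12. Both groups held 18 agouti, 3 black and 1 white mouse and 1 of another coat. The total signal per mouse ran from 152390 to 272512 (median 244880) in the high-score group and from 219264 to 277297 (median 251936) in the low-score group. From the step between low values, the depth was estimated at 11.6 to 17.0 M reads (megareads) in high-score males and 10.5 to 17.9 M in low-score males. The signal is scaled to the upper quartile of each mouse and not to gene length, so levels are compared here between mice and not between genes.

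The score genes themselves are given as a description, since they chose the mice. Cyp2a4, at chromosome 7:26307169-26315088 on GRCm38, encodes a testosterone 15α-hydroxylase. Its signal ran from 0.74 to 4.80 (median 1.98) in low-score chow males and from 4.51 to 260.3 (median 56.8) in high-score chow males. On the high fat diet it ran from 0.565 to 6.05 (median 2.03) in low-score and from 7.70 to 484.8 (median 205.1) in high-score males. Females ran from 93.2 to 791.6 (median 390.3), and 11 of the 23 high-score males, 1 of the 48 middle-score and 0 of the 23 low-score males reached the lowest female. Cyp2b9, at chromosome 7:26173411-26210661, ran from 2.44 to 90.3 (median 12.6) in high-score chow males and from 6.83 to 176.2 (median 36.3) in high-score high fat males. The low-score males lay between 0.30 and 1.99, and the females between 0.50 and 280.7 (median 141.7). In 3 chow females Cyp2b9 was between 0.50 and 0.61, within the range of the low-score males, and the other females were at 28.7 or more.

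**Figure D1:**
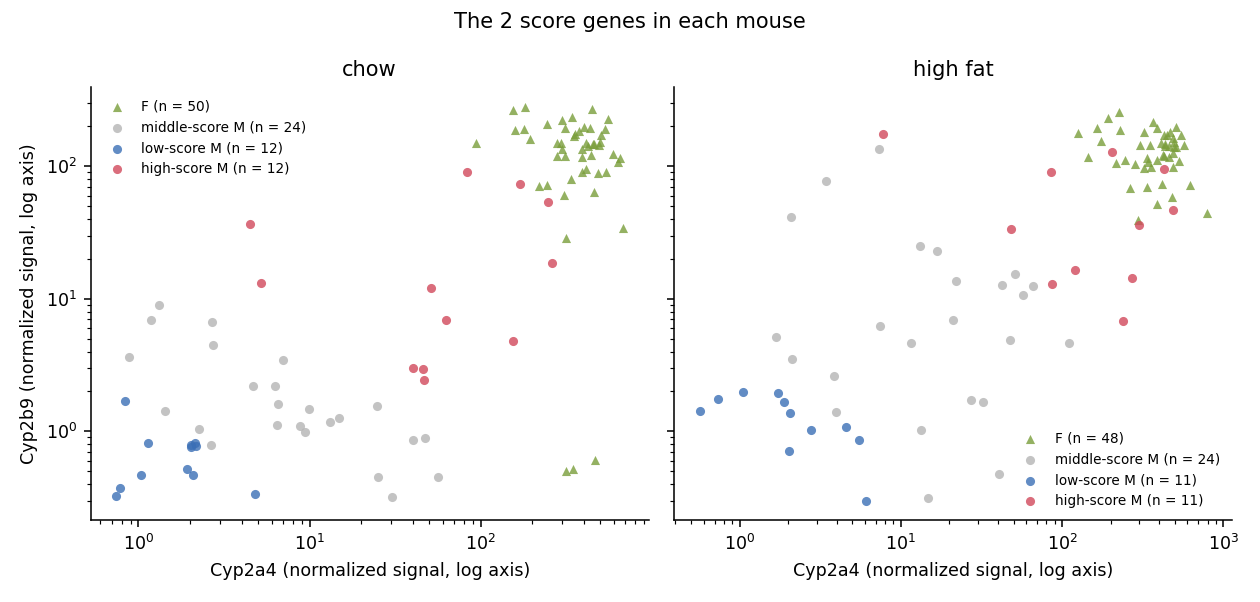
Signal of Cyp2a4 (x axis) and Cyp2b9 (y axis) in each mouse on logarithmic axes, chow mice on the left and high fat mice on the right. High-score males (red) spread from near the other males up to the female cluster (green triangles), and some are high in 1 score gene only.

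The ranks formed a continuum with no gap at the borders. On chow the last male inside the high-score group scored 3.06 and the next one 2.74, and on the high fat diet these were 5.07 and 4.98. At the other end the first male inside the low-score group scored 0.48 on chow, next to 0.57 outside, and 1.21 on the high fat diet, next to 1.24 outside. The highest chow male scored 6.86 and the highest high fat male 7.66. Males high in either score gene were not all high in the other. Of the 23 males that ranked highest by Cyp2a4 alone 18 were high-score males, by Cyp2b9 alone 16 were, and 12 ranked highest by both.

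Next to the score genes lie 11 related genes of the same cluster, of which 8 passed the filter on low values. A gene was tested when its signal was above 0 in at least 24 males and its mean over the males was at least 0.06, which left 14609 genes. It was called when limma's adjusted p was under 0.05. Over all tested genes 3.4% were called, 1.51% higher and 1.89% lower in high-score males. In the cluster 3 of 8 were higher, 0 were lower and 5 did not pass. Cyp2b13, the nearest relative of Cyp2b9, ran from 0.055 to 0.40 (median 0.128) in low-score males and from 0.132 to 37.8 (median 1.71) in high-score males. It was above every low-score male in 18 of 23 high-score males, and rose by 3.02 ± 0.39 on the log2 scale (SE, limma adjusted p = 5.16e-06). Cyp2a22 rose by 1.76 ± 0.29 (limma adjusted p = 0.000256). Cyp2a5, the coumarin 7-hydroxylase and closest relative of Cyp2a4, rose by 0.93 ± 0.28 (limma adjusted p = 0.0499), with much overlap between groups. The 5 others were Cyp2f2 at -0.39 ± 0.16, Cyp2g1 at 0.45 ± 0.29, Cyp2a12 at 0.14 ± 0.13, Cyp2b10 at -0.24 ± 0.46 and Cyp2s1 at 0.00 ± 0.16. Reads from such copies may be counted for more than 1 of them. Of the 50-base words in the transcripts of Cyp2a5, 28.1% also occur in Cyp2a4, and 27.3% of those of Cyp2b13 occur in some other gene, while how the authors assigned such reads is not given in the sources used here.

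The windows around the start of the Cyp2b genes show how alike these genes are. They are RefSeq sequences on GRCm38.p6, 250 bases before to 50 after the start, plus strand, from chr7:26173159-26173458 for Cyp2b9, chr7:26061245-26061544 for Cyp2b13 and chr7:25897408-25897707 for Cyp2b10. Capitals mark bases that differ from the aligned Cyp2b9 window.
Cyp2b9: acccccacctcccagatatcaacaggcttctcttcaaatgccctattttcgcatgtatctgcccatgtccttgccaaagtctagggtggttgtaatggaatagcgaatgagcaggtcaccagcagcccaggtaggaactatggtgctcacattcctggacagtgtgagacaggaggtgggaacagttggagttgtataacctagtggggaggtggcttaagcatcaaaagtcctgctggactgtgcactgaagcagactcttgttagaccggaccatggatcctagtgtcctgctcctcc
Cyp2b13: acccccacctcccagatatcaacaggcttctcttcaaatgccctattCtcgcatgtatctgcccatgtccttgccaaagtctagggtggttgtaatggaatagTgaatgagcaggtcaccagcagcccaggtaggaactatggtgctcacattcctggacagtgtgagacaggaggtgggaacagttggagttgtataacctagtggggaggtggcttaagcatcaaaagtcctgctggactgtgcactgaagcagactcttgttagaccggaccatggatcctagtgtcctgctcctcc
Cyp2b10: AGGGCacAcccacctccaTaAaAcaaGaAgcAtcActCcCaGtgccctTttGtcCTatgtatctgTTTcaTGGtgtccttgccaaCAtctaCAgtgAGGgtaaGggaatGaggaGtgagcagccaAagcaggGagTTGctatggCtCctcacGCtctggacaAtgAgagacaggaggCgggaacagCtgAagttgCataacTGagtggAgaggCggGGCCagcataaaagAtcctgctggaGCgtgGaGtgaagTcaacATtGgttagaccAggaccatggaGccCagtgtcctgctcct
In a global alignment, 298 of the 300 bases (99.3%) of the Cyp2b13 window were identical to that of Cyp2b9, against 229 (76.3%) for Cyp2b10. The signal of Cyp2b10, the classic target of the xenobiotic receptor CAR, ran from 0.375 to 143.5 (median 19.1) in low-score and from 3.11 to 75.5 (median 14.5) in high-score males. These ranges overlap almost wholly (limma adjusted p = 0.832). Around the cluster, within 2 Mb of the score genes, 81 further genes were tested and 4 were called, 2 higher and 2 lower. Over all tested genes 3.4% were called, and whether the window differs from that was not tested. These were Nlrp9c at 1.33 ± 0.32, Pafah1b3 at 0.55 ± 0.16, Phldb3 at -0.58 ± 0.16 and Cadm4.

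Across the whole transcriptome 496 of 14609 genes differed between high-score and low-score males, 220 higher and 276 lower, and 2659 (18.2%) had an unadjusted p under 0.05. The median change over all tested genes was -0.01. To ask how this relates to sex, genes were classed by the 98 females against the 48 middle-score males, mice of which none is in the comparison of high-score with low-score males. A gene was classed as F-biased or M-biased when limma's adjusted p was under 0.05 and the difference at least 1 on the log2 scale, which 1.35% of tested genes met as F-biased and 1.64% as M-biased. Outside the Cyp2 cluster these were 193 F-biased and 239 M-biased genes. Of the F-biased genes 46 (23.8%) rose in high-score males, 0 fell and 147 did not pass. Of the M-biased genes 71 (29.7%) fell, 1 rose and 167 did not pass. That single gene was Gm13169, at 0.90 ± 0.26, named here after its value was seen.

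Over each class as a whole, called genes included, most changes pointed the same way. The median change was 0.54 in F-biased genes, with 179 of 193 above 0, and -0.58 in M-biased genes, with 209 of 239 below 0, against 7886 of all 14609 tested genes below 0. With a sex difference of at least 2 on the log2 scale, 22 of 64 F-biased genes rose (median 0.91) and 40 of 82 M-biased genes fell (median -1.11). Leaving out chromosome 7 altogether, 45 of 180 F-biased genes rose and 65 of 226 M-biased genes fell. The size was a part of the sex difference. The median ratio of the change to the difference of females from middle-score males was 35.3% in F-biased and 30.4% in M-biased genes. The change starts from low-score males and the difference from middle-score males, so the ratio is not the distance covered towards females. This holds for the percentages of the sex difference below too. Taken per mouse from the middle-score males of the diet, F-biased genes had a median of 0.28 in high-score males and 1.65 in females. For M-biased genes these were -0.31 and -1.74.

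**Figure D2:**
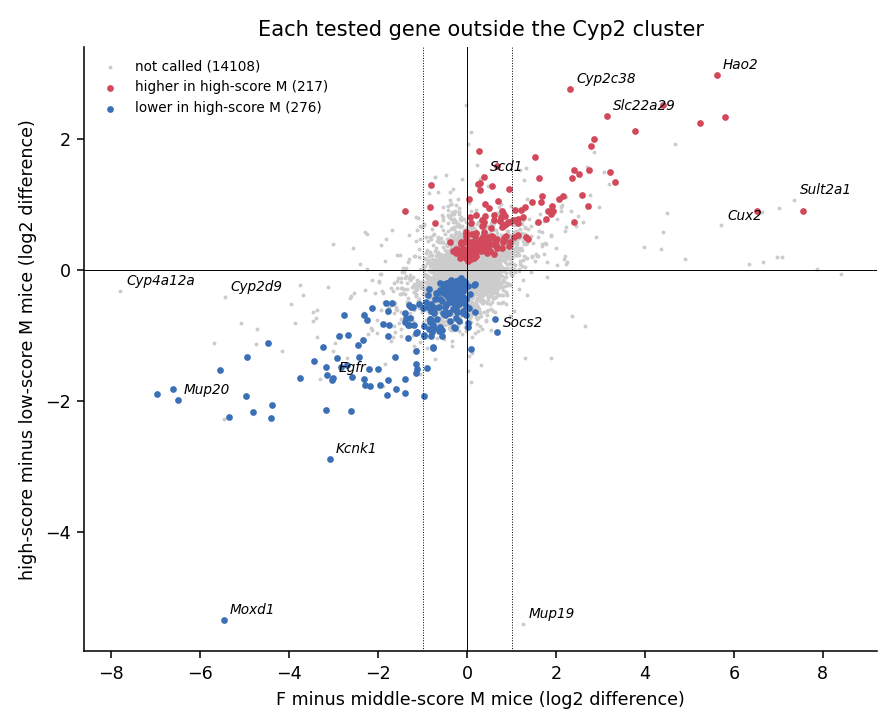
Each tested gene outside the Cyp2 cluster by its difference between females and middle-score males (x axis, log2) and between high-score and low-score males (y axis, log2), with dotted lines at a sex difference of 1. The 217 genes called higher (red) lie mostly on the right and the 276 called lower (blue) mostly on the left, while Cyp4a12a, Cyp2d9, Cux2 and Sult2a1 lie far out in sex, were not called and have changes of -0.32, -0.41, 0.68 and 1.08.

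Most called genes were in neither sex-biased class. Outside the cluster, 170 of the 217 genes called higher and 205 of the 276 called lower were of this kind, against 14169 of all 14601 tested genes. F-biased genes made up 21.2% of the genes called higher, and M-biased genes 25.7% of those called lower. The class of neither bias includes sex differences under 1 on the log2 scale. Examples are Aadat, at -0.79 between females and middle-score males, and Igfbp2, at 0.02. Among changes of at least 1 on the log2 scale the picture was different, since 23 of 35 higher genes were F-biased and 48 of 56 lower genes were M-biased.

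The other markers proposed for a female-type pattern did not pass. Cux2, which encodes the female-specific repressor, ran from 0.069 to 0.354 (median 0.139) in low-score males, from 0.062 to 1.76 (median 0.188) in high-score males and from 0.408 to 27.2 (median 11.9) in females. High-score males overlapped the low-score males, with 6 of 23 above all of them and 5 at or above the lowest female. The change was 0.68 ± 0.23 (limma adjusted p = 0.0827), or 12.0% of the female-minus-male difference. Sult2a1, a sulfotransferase of bile acids and steroids, had a median of 0.249 in low-score males (0.08 to 25.7), 0.596 in high-score males (0.071 to 20.9) and 91.0 in females (12.5 to 236.7). No high-score male exceeded the highest low-score male, M394 at 25.7, which itself lay within the female range. The next low-score male was M415 at 10.8, and high-score males M365 (20.9) and M359 (13.7) exceeded M415. The change in Sult2a1 was 1.08 ± 0.57 (limma adjusted p = 0.310). The males highest in Cux2 and Sult2a1 were not all high-score males. Of the 23 top males by Cux2, 12 were high-score and 5 low-score males, and by Sult2a1 10 and 4. Since neither marker passed, the mice are called here by their score and not by a female pattern.

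The largest rises outside the cluster included genes of peroxisomal and drug metabolism. Hao2, a peroxisomal 2-hydroxyacid oxidase, ran from 0.117 to 0.737 (median 0.227) in low-score males, from 0.128 to 19.6 (median 2.31) in high-score males and from 9.53 to 66.1 (median 29.8) in females. In 17 of 23 high-score males it was above every low-score male, and 6 reached the lowest female, as did 1 of 48 middle-score and 0 of 23 low-score males. It rose by 2.99 ± 0.44 (limma adjusted p = 3.46e-05). The cytochrome P450 gene Cyp2c38 ran from 0.194 to 18.8 (median 1.98) in low-score and from 2.44 to 63.8 (median 15.2) in high-score males. It rose by 2.77 ± 0.48, and 20 of 23 high-score, 39 of 48 middle-score and 7 of 23 low-score males reached the lowest female. Its neighbour Cyp2c39 rose by 2.01 ± 0.48. Acot3, a peroxisomal acyl-CoA thioesterase, rose by 2.25 ± 0.45, and Abcd2, the peroxisomal importer of very long chain acyl-CoA, by 2.13 ± 0.45.

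A pair of organic anion transporter genes rose as well. Slc22a29 ran from 0 to 0.223 (median 0.045) in low-score males, from 0.09 to 2.47 (median 0.538) in high-score males and from 0.108 to 8.26 (median 2.31) in females. It lay above every low-score male in 16 of 23 high-score males and rose by 2.36 ± 0.28 (limma adjusted p = 2.02e-06). Slc22a27 rose by 2.53 ± 0.41 (limma adjusted p = 0.00015). These 2 genes are not fully separable, since 23.0% of the 50-base words of Slc22a29 occur in Slc22a27.

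Of the list of 33 tested genes known to be higher in female liver, 10 (30.3%) rose, 0 fell and 23 did not pass. Over all tested genes 1.51% rose and 1.89% fell, and the median change of the list was 0.89. Beyond those above, Cyp3a44 rose by 0.90 ± 0.21, Cyp3a41a by 0.90 ± 0.26 and the glutathione transferase Gstt3 by 0.86 ± 0.22. In Cyp3a41a the rise was 11.9% of the female-minus-male difference, and 98.6% of its 50-base words occur in other genes, mainly its copy Cyp3a41b. Further members that differ strongly by sex did not pass. A1bg was at 0.95 ± 0.36 (limma adjusted p = 0.131), Cyp17a1 at 0.58 ± 0.40 (limma adjusted p = 0.463) and Sult2a5 at 0.89 ± 0.28 (limma adjusted p = 0.0659). A1bg had a median of 0.561 in low-score males, 0.883 in high-score males and 135.8 in females, so high-score males stayed near the other males. A1bg and Cyp17a1 were named after their values were seen.

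**Figure D3:**
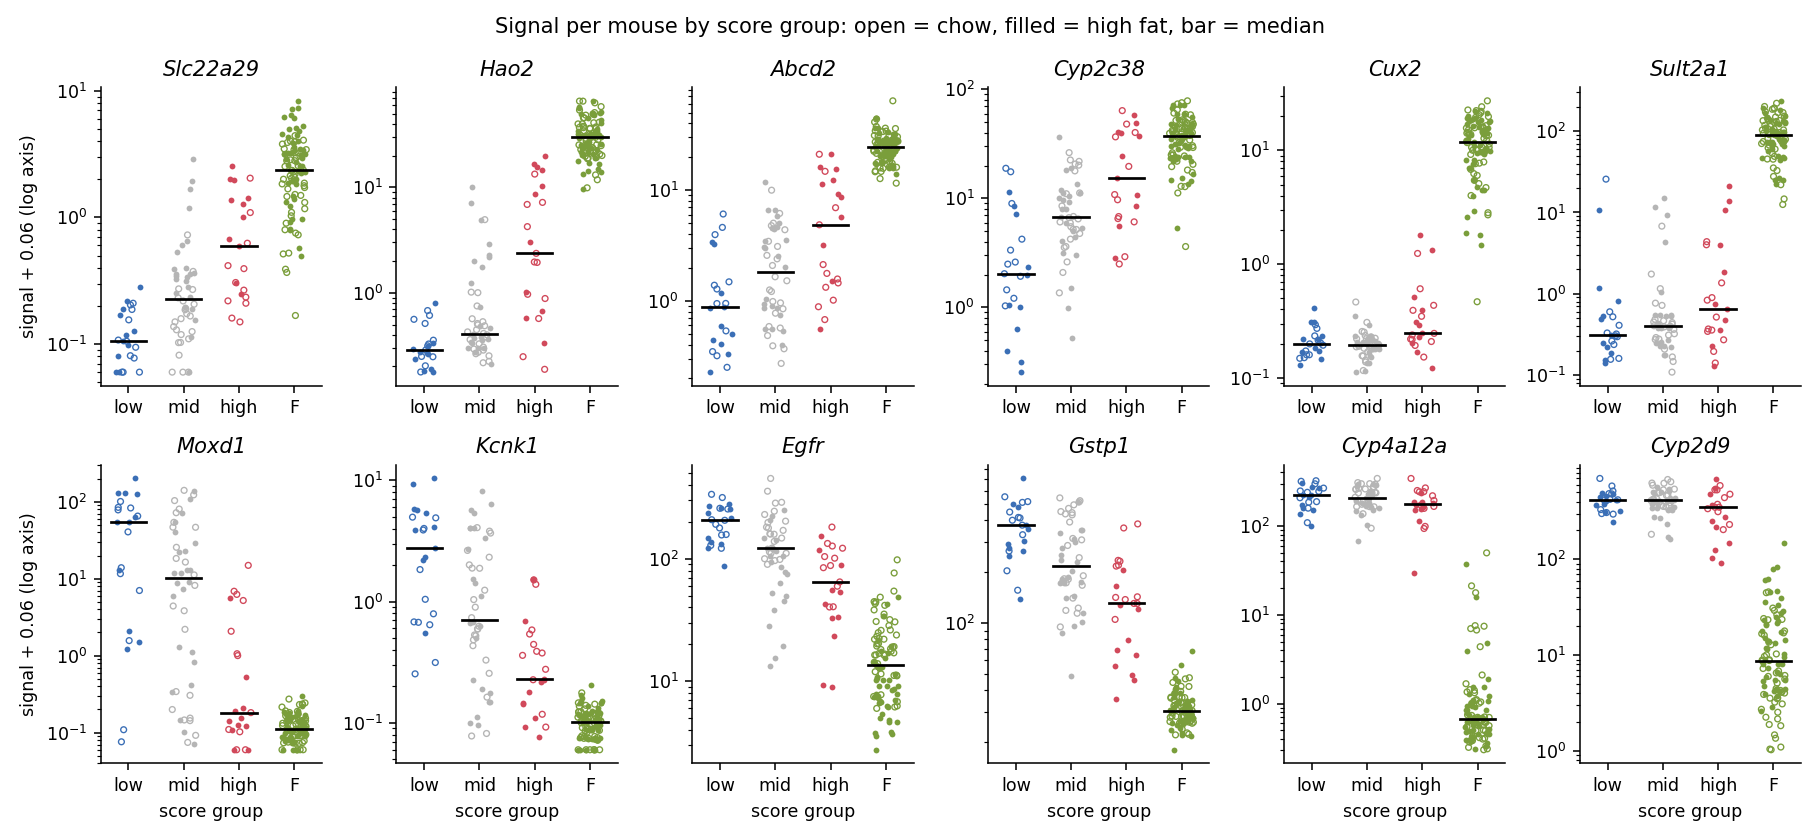
Signal + 0.06 per mouse on a logarithmic axis for 12 genes in low-score, middle-score and high-score males and in females, with open points for chow, filled points for high fat and a bar at the median. Slc22a29, Hao2, Moxd1, Kcnk1, Egfr and Gstp1 lie between low-score males and females in the high-score group, while the medians of Cux2, Cyp4a12a and Cyp2d9 lie near those of the other males.

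Rises outside the sex-biased class included Gprc5b, an orphan receptor gene, at 1.59 ± 0.38, and A4gnt, a glycosyltransferase gene, at 1.82 ± 0.54 (limma adjusted p = 0.0499). Rgs16, a regulator of G protein signalling, was F-biased. It ran from 0.436 to 25.1 (median 4.93) in low-score and from 1.24 to 52.9 (median 23.5) in high-score males and rose by 1.74 ± 0.41.

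The largest fall of any called gene was that of Moxd1, which encodes a monooxygenase related to dopamine beta-hydroxylase. It ran from 0.016 to 200.3 (median 54.0) in low-score males, from 0 to 14.8 (median 0.122) in high-score males and from 0 to 0.242 (median 0.053) in females. In 14 of 23 high-score males the level was at or below the highest female, as it was in 9 of 48 middle-score and 2 of 23 low-score males. It fell by 5.35 on the log2 scale (SE 0.87, limma adjusted p = 0.000182), which is 97.8% of the difference between females and middle-score males. The fall is taken from low-score males, while middle-score males had a median of 10.1. The percentage therefore does not place high-score males at the female level, and their mean was 1.90 against 0.065 in females. The Moxd1 window is shown because STAT5 proteins bind the letters TTCNNNGAA, and 1 match begins 150 bases before the start (capitals). It is RefSeq sequence on GRCm38.p6, plus strand, chr10:24223267-24223566.
Moxd1: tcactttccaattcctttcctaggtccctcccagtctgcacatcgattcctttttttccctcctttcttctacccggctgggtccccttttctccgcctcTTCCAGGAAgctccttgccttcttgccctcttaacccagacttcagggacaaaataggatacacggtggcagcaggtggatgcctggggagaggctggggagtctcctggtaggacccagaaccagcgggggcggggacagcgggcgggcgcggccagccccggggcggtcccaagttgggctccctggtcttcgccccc
TTCNNNGAA reads the same on both strands and was searched in all windows of this length. It occurred in 7.01% of the windows of tested genes and 8.3% of all RefSeq windows. Windows were matched by symbol for 10827 of 14601 tested genes outside the cluster. Among M-biased genes that fell it was in 7 of 63 windows (11.1%), among M-biased genes that did not pass in 14 of 150 (9.33%), and among F-biased genes that rose in 3 of 44 (6.82%). A match is only a match of letters, and no difference between these shares was tested.

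Further M-biased genes were among the largest falls. Kcnk1, a potassium leak channel, ran from 0.194 to 10.3 (median 2.69) in low-score males, from 0.016 to 1.46 (median 0.169) in high-score males and from 0 to 0.147 (median 0.041) in females. It was below every low-score male in 12 of 23 high-score males and fell by 2.89 (SE 0.42, limma adjusted p = 3.46e-05). Nuggc, a nuclear GTPase, fell by 2.15, Scara5, a ferritin receptor, by 2.07 and the calpain protease gene Capn8 by 1.93. Capn8 was below every low-score male in 15 of 23 high-score males. Selenbp2, a selenium-binding protein, fell by 2.25, and 43.9% of its 50-base words occur in Selenbp1. Cadm4, a cell adhesion gene within the window around the score genes on chromosome 7, fell by 1.88, and Enho, which encodes adropin, fell by 1.92 without being in the M-biased class.

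In the list of 28 genes known to be higher in male liver 12 (42.9%) fell, 0 rose and 16 did not pass. Over all tested genes 1.89% fell, and all 28 changes in the list were below 0 (median -1.17). Enzymes of steroid and oxysterol metabolism were among them. Cyp7b1, the oxysterol 7-alpha-hydroxylase, ran from 52.5 to 302.6 (median 164.7) in low-score and from 6.60 to 147.5 (median 70.5) in high-score males and fell by 1.61 (SE 0.29). Hsd3b5, a steroid dehydrogenase gene, fell by 1.82 (SE 0.50), the fatty acid elongase gene Elovl3 by 1.11 and the glucuronosyltransferase genes Ugt2b38 by 2.13 and Ugt2b1 by 0.66. Gstp1, a glutathione transferase, ran from 137.4 to 706.4 (median 375.1) in low-score and from 35.4 to 381.4 (median 129.8) in high-score males. It fell by 1.47 (SE 0.21, limma adjusted p = 1.96e-05), and Gstp2, with which it shares 33.7% of its words, by 1.33.

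The genes C6, C8b and Susd4 encode proteins of the complement system, and other complement genes were not counted. C6, a component of the membrane attack complex, ran from 67.8 to 690.6 (median 138.7) in low-score, from 13.3 to 235.3 (median 49.1) in high-score males and from 2.09 to 33.0 (median 5.93) in females. It was below every low-score male in 18 of 23 high-score males, and fell by 1.65 (SE 0.27, limma adjusted p = 0.000256). C8b, of the same complex, fell by 1.35 and Susd4, a complement regulator, by 1.34 (SE 0.31).

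Major urinary proteins are pheromone carriers that male liver secretes in quantity. Of the 20 tested genes 6 (30%) fell, 0 rose and 14 did not pass, while 1.89% of all tested genes fell. Of the 20 changes 18 were below 0, with a median of -1.12. Within chow the median was -0.54 with 0 genes called, and within high fat -2.07 with 9 called. Mup20, which encodes the male pheromone darcin, ran from 49.1 to 3688 (median 332.5) in low-score and from 16.4 to 1302 (median 102.9) in high-score males, and fell by 1.98 (SE 0.40). Its change was -0.72 within chow (limma adjusted p = 0.550) and -3.425 within high fat (limma adjusted p = 0.000302). The diet difference of Mup20 did not pass (limma adjusted p = 0.1145). Mup7 fell by 1.53, Mup9 by 1.33, Mup14 by 1.39, Mup17 by 2.27 and Mup21 by 1.90. The copies of this family are close, and 86.7% of the 50-base words of Mup7 and 100% of those of Mup19 occur in other genes. Mup19 had the largest estimate of the family, -5.41 ± 1.90, and did not pass (limma adjusted p = 0.104). Its signal was listed at 0 in some mice of each group.

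Some of the most sex-dependent male genes did not pass. Cyp4a12a, a fatty acid hydroxylase, ran from 100.8 to 322.8 (median 222.6) in low-score males, from 29.3 to 342.3 (median 177.0) in high-score males and from 0.243 to 49.8 (median 0.613) in females. Its change was -0.32 ± 0.17 (limma adjusted p = 0.312), and 1 of 23 high-score males lay within the female range. Cyp2d9, a steroid 16-alpha-hydroxylase, had medians of 415.6, 348.3 and 8.67 in the same groups. Its change was -0.41 ± 0.18 (limma adjusted p = 0.207), against a female-minus-male difference of -5.45. Both genes were named after their values were seen.

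Genes of hormone signalling changed in part. In the list of 35, 1 (2.86%) rose, 6 (17.1%) fell and 28 did not pass (median -0.08). The shares over all tested genes were 1.51% and 1.89%. Egfr, the epidermal growth factor receptor, ran from 87.2 to 336.6 (median 206.4) in low-score males, from 8.97 to 181.7 (median 64.7) in high-score males and from 2.69 to 98.0 (median 13.6) in females. It was below all low-score males in 13 of 23 high-score males and fell by 1.65 (SE 0.24, limma adjusted p = 3.46e-05), or 54.7% of the sex difference. Prlr, the prolactin receptor, ran from 6.59 to 34.6 (median 18.9) in low-score and from 9.56 to 66.2 (median 37.3) in high-score males. It rose by 0.90 ± 0.19, and 13 of 23 high-score, 7 of 48 middle-score and 0 of 23 low-score males reached the lowest female. The hepatocyte transcription factors Hnf4a and Foxa3 fell by 0.32 (SE 0.07) and 0.58 (SE 0.11).

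A further 3 genes of this list fell without a lower level in females of like size. Socs2, a feedback inhibitor that growth hormone induces through STAT5b, had a median of 2.05 in low-score, 1.00 in high-score males and 2.41 in females. It fell by 0.95 (SE 0.28, limma adjusted p = 0.0425), while its female-minus-male difference was 0.67. Igfbp2, an IGF-binding protein, fell by 0.87 (SE 0.24), and Lifr, the receptor of leukemia inhibitory factor, by 0.54 (SE 0.14), with female-minus-male differences of 0.02 and -0.03. Of the factors that set the sex pattern, Bcl6 was at -0.50 ± 0.33 (limma adjusted p = 0.437) and Tox, a further female-biased nuclear factor, at 0.91 ± 0.32 (limma adjusted p = 0.104). Igf1, the main growth hormone target in liver, was at 0.00 ± 0.09 (limma adjusted p = 0.995), with medians of 134.8, 138.2 and 130.1 in low-score males, high-score males and females. Bcl6 and Igf1 were named after their values were seen.

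A part of the lipid genes rose in high-score males. Targets of PPAR alpha, the fatty acid sensing nuclear receptor, rose in 8 of 24 (33.3%) and fell in 0, with a median of 0.25. Over all tested genes 1.51% rose. Of the 24 targets, 16 were also higher in females than in middle-score males. Cd36, a fatty acid transporter, ran from 3.90 to 50.3 (median 15.0) in low-score males, from 12.1 to 89.2 (median 36.5) in high-score males and from 14.2 to 92.7 (median 56.1) in females. It rose by 1.41 ± 0.24 (limma adjusted p = 0.000453), and 18 of 23 high-score, 29 of 48 middle-score and 13 of 23 low-score males reached the lowest female. Cyp4a10, a fatty acid omega-hydroxylase, rose by 1.53 ± 0.42, Acot2, a mitochondrial thioesterase, by 1.14 ± 0.21, the pantetheinase gene Vnn1 by 1.15 ± 0.31 and the medium chain dehydrogenase gene Acadm by 0.35 ± 0.08.

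Genes of fatty acid and triglyceride synthesis rose in 6 of 17 (35.3%) and fell in 0, against 1.51% and 1.89% of all tested genes. Of the 17 changes, 16 were above 0 (median 0.58). Scd1, the stearoyl-CoA desaturase, ran from 189.6 to 2694 (median 585.3) in low-score males, from 304.4 to 8507 (median 1889) in high-score males and from 34.4 to 8468 (median 1176) in females. In 8 of 23 high-score males, all on the high fat diet, it lay above every low-score male, and it rose by 1.42 ± 0.32 (limma adjusted p = 0.00733). Pnpla3, a lipid droplet protein, rose by 1.90 ± 0.51, Elovl5, a fatty acid elongase, by 0.77 ± 0.18, Gpam, the first enzyme of glycerolipid synthesis, by 0.72 ± 0.21, Pklr, liver pyruvate kinase, by 0.68 ± 0.18 and the desaturase gene Fads1 by 0.46 ± 0.14. Of 11 lipid droplet genes 2 (18.2%) rose, Pparg by 1.06 ± 0.31 and Mogat1, a monoacylglycerol acyltransferase gene, by 1.29 ± 0.38. The 23 genes of cholesterol synthesis and uptake had 0 calls, and 4 had an unadjusted p under 0.05. Over all tested genes these shares were 3.4% and 18.2%, so a list of this size holds few calls.

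For other pathways the calls are given as counts, and over all tested genes 3.4% were called. At that share a list of this size holds few calls, so these counts say little about the pathways. Targets of the xenobiotic receptors CAR and PXR gave 0 calls of 25 although 9 had an unadjusted p under 0.05, all above 0. In the bile acid list Slco1a4, an organic anion transporter, rose by 1.14 ± 0.30, and Cyp7a1, the rate-limiting enzyme of bile acid synthesis, fell by 0.75 (SE 0.21), against a female-minus-male difference of 0.63. Single calls in further lists were Serpina3m at 0.95 ± 0.22 among 27 acute phase genes, Xbp1 at -0.44 ± 0.12 among 18 genes of the unfolded protein response, Nqo1 at 0.71 ± 0.20 among 13 NRF2 targets and Ccne1 at -0.52 ± 0.14 among 16 cell cycle genes. Clock and gluconeogenesis genes and those of the zones of the liver lobule had 0 calls.

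**Figure D4:**
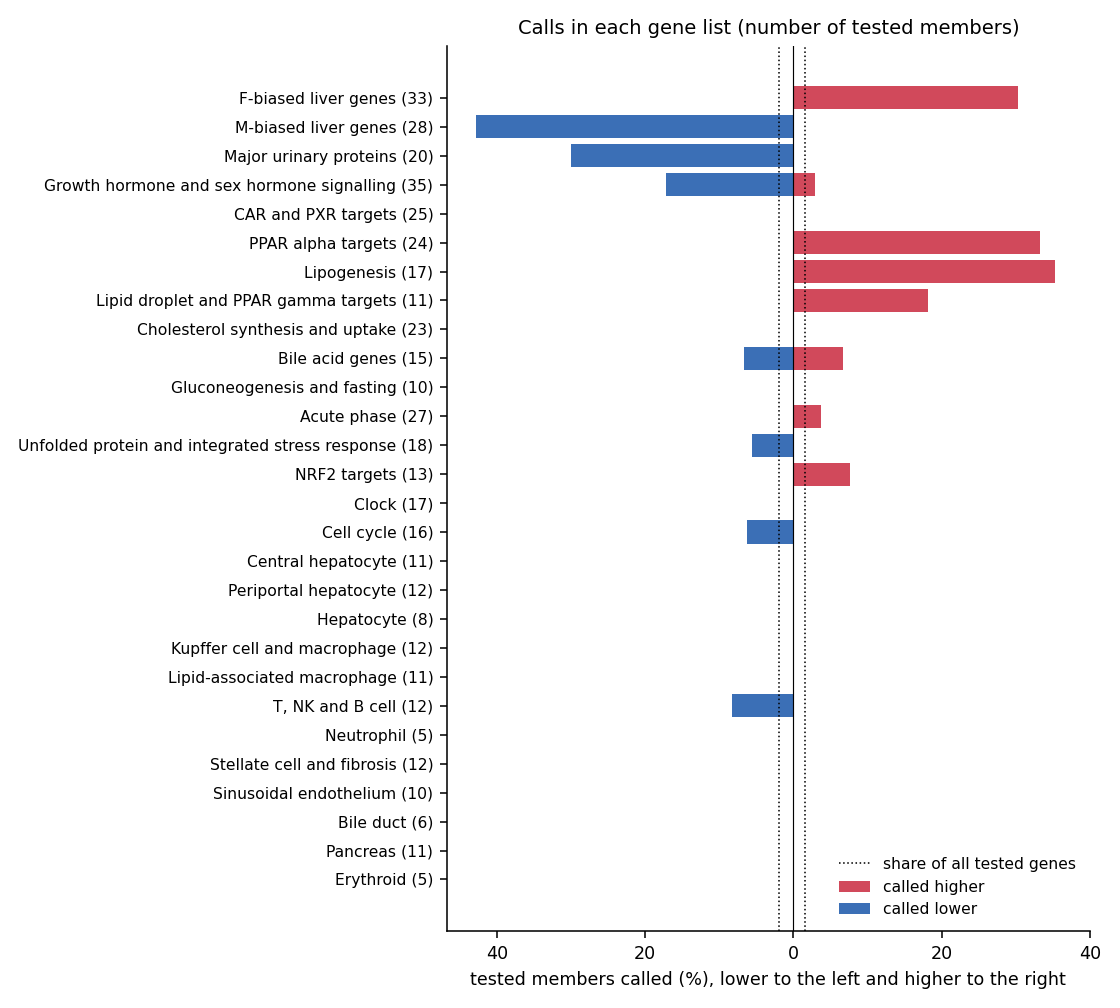
Share of tested members called higher (red, to the right) and lower (blue, to the left) in high-score males for each gene list, with the number of tested members in brackets and dotted lines at the shares over all tested genes, 1.51% and 1.89%. Calls gather in the sex-biased, urinary protein, signalling and lipid lists, and most cell type lists have 0.

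The ranges of markers of other cell types overlapped between both groups. Their lists had 0 calls except for Cd4, the coreceptor of helper T cells, which fell by 1.50 (SE 0.29) as the only 1 of 12 tested T, NK and B cell genes. At the 3.4% called over all tested genes, lists of this size hold few calls. The summed signal of hepatocyte markers ran from 14290 to 27420 (median 21690) in low-score and from 14220 to 34710 (median 24560) in high-score males, and no defining marker of any list was at 0 throughout. All 12 Kupffer cell and macrophage markers were lower in high-score males without a call (median -0.23), with sums of 53.7 to 203.5 (median 90.7) in low-score and 35.3 to 134.2 (median 83.0) in high-score males. Other lists leaned the other way without a call, with 12 of 12 stellate cell and fibrosis markers (median 0.23), 10 of 11 lipid-associated macrophage markers (median 0.19) and 10 of 11 pancreas genes (median 0.75) above 0. Marco, the Kupffer cell and macrophage gene with the smallest p, was at -1.35 ± 0.51 (limma adjusted p = 0.131). Summed pancreas transcripts ran from 3.46 to 11.1 in low-score males and from 1.02 to 613.4 in high-score males, where 2 mice exceeded 10 times the median. Without mice of that kind 376 genes were called, 37 F-biased genes rose and 65 M-biased genes fell. In whole liver a smaller number of cells of a type and less RNA per cell cannot be told apart.

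Mouse by mouse, the shift was graded and not shared by all high-score males. For each mouse the median log2 difference from the middle-score males of its diet was taken over the F-biased and over the M-biased genes. Over F-biased genes it ran from -0.62 to 0.17 (median -0.22) in low-score males, from -0.32 to 1.15 (median 0.28) in high-score males and from 0.83 to 2.11 (median 1.65) in females. Over M-biased genes it ran from -0.15 to 0.74 (median 0.23), from -1.17 to 0.17 (median -0.31) and from -2.22 to -0.73 (median -1.74) in the same groups. For each class 16 of 23 high-score males and 11 of 48 middle-score males lay beyond every low-score male. F-biased genes were up together with M-biased genes down in 17 of 23 high-score, 11 of 48 middle-score and 2 of 23 low-score males. The remaining 6 high-score males were up in the score genes without both shifts. The most shifted high-score male, M365 (1.15 over F-biased and -1.17 over M-biased genes), passed female F408 (0.83 and -0.73) in both measures. The next least shifted female, F391 (1.06 and -1.29), was passed over F-biased genes only. Other females lay beyond M365 in both measures. The gene classes were drawn from these same females and middle-score males, so the female values and the level of 0 follow in part from that choice.

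**Figure D5:**
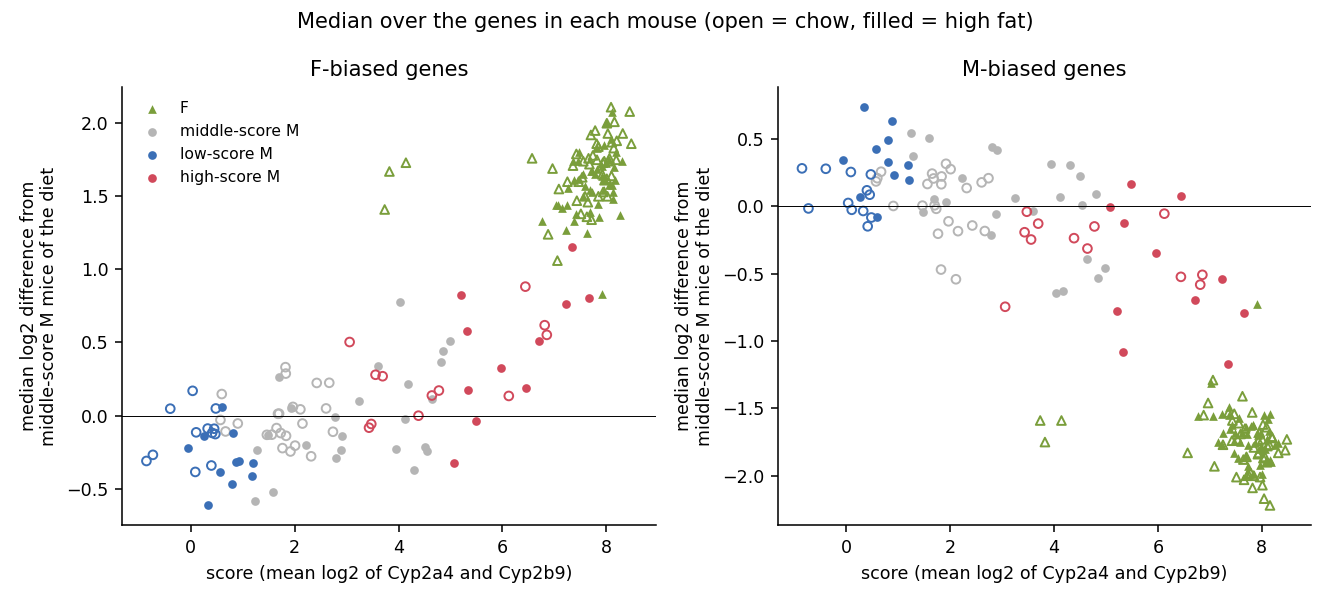
Median log2 difference from the middle-score males of the diet over F-biased genes (left) and M-biased genes (right) in each mouse (y axis) against its score (x axis), open for chow and filled for high fat. High-score males (red) spread from within the range of the other males to the least shifted female, F408, and females are green triangles. They lie mostly above 0 on the left and below 0 on the right.

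The change was larger on the high fat diet in these medians, but a difference between diets was not shown. F-biased genes had a median of 0.40 with chow against 0.72 with high fat, and M-biased genes -0.39 and -0.69. Within chow 4 genes were called (2 higher and 2 lower, 0.0137% each), and within high fat 295 (109 higher, 0.746%, and 186 lower, 1.27%). The chow genes, named after their values were seen, were Serpine2, A730015C16Rik, Hpgd and Pitrm1. Testing the difference of the changes directly, limma called 0 genes, with 1731 (11.8%) at an unadjusted p under 0.05, and 2 genes after median-of-ratios rescaling or quantile normalization, Secisbp2l and Clcn3. Lipogenic genes had medians of 0.26 on chow and 1.05 on high fat, and lipid droplet genes -0.11 and 1.26. By generation label, 334 genes were called within G11L1 and 8 within G11L2, and whether the labels differ was not tested.

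Over all 94 males, with the diet means taken out, the genes whose levels most resembled the score were described by Spearman's rho. Predicted genes and pseudogenes were passed over in this ranking. The highest were Cyp2b13 (0.75), Slc22a29 (0.70), Cyp2a22 (0.66), Slc16a7 (0.66), Abcb1a (0.64), Hao2 (0.63), Slc22a27 (0.61) and Cyp2c38 (0.59). Slc16a7, a monocarboxylate transporter, ran from 3.90 to 11.3 (median 6.83) in low-score and from 6.34 to 20.2 (median 13.7) in high-score males and rose by 0.92 ± 0.11 (limma adjusted p = 2.3e-06). Abcb1a, the drug efflux pump P-glycoprotein, rose by 1.53 ± 0.24. The most negative were Aadat (-0.68), Egfr (-0.65), Cyp7b1 (-0.64), C8b (-0.63), C6 (-0.62), Serpine2 (-0.61), Kcnk1 (-0.60) and Ces4a (-0.58). Serpine2, a serine protease inhibitor, ran from 2.48 to 13.2 (median 6.68) in low-score and from 0.20 to 5.36 (median 2.34) in high-score males. It fell by about the same amount on both diets, -1.76 on chow and -1.78 on high fat. Aadat, a transaminase of lysine and kynurenine metabolism, fell by 0.78 (SE 0.11, limma adjusted p = 3.46e-05), and Ces4a, a carboxylesterase, by 1.68 (SE 0.32).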

How the data were processed

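Liver mRNA of 192 mice was sequenced (384 samples, 2 technical repeats per mouse), and the authors deposited a table of 21454 genes with 1 column per mouse. Per the name the authors gave the deposited table, the values are a signal scaled by each mouse's upper quartile. The submitters' processing notes name GRCm38 (mm10) as the build and CASAVA 1.8.0 as a tool, while the aligner, the counting and its use of strand are not given in the sources used here, so reads of overlapping genes on opposite strands may not be separated. Gene IDs were matched to GENCODE M21 (21022 matched, 432 did not), whose coordinates are counted from 1.

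In each mouse 78.4% to 82.5% of low values (at most 100 reads) lay within 0.1 of a whole read, at an estimated depth of 9.79 to 17.9 M reads. Whole reads were therefore not recovered, no count test was run, and precision rests on the number of mice. The signal was tested as log2(signal + 0.06) with limma 3.58.1 in R 4.3.3, with a mean-variance trend, diet and generation label as covariates and Benjamini-Hochberg adjustment over all tested genes. A change on this scale understates that of low genes, and "±" gives limma's SE. The procedure was tested on simulated data. The female reference used all females and the middle-score males. Pairs of female and male mice sharing a number come from different animals, so the number was not used to pair them.

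Genes named are Cux2 and Sult2a1, and the 12 largest called changes in each direction with a mean of at least 0.6 in the higher group. Predicted genes, pseudogenes and the Cyp2 cluster were passed over there. Also named are up to 6 members of each list by smallest p (12 for the sex-biased, urinary protein and signalling lists) and all tested cluster genes. The 8 genes in each direction most like the score, predicted genes and pseudogenes aside, are named as well. A gene so chosen is not reported here, while counts include it. The members and lists were chosen with earlier results of these data known. Words of 50 bases shared between transcripts were counted in GENCODE M21. Alternatives covered pseudocount, filter, scaling, score, share of mice, covariates, weights and subsets of mice.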

Additional observations from a re-analysis of the deposited data

How the results depend on the processing

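None of the 72 called genes named with a value changed direction in 1652 estimates under the alternatives. All 496 calls kept their direction in every alternative that tested them except in the high fat mice alone (495). The alternatives refit the same males or part of them, and the genes were called in these mice. The estimates are therefore not independent of the main result or of each other. The number of called genes moved to 143 with the score from Cyp2a4 alone, 1034 with Cyp2b9 alone, 1000 with the males cut into 3 groups, 1045 with a continuous score, 4 in chow mice, 295 in high fat mice and 8 in G11L2 mice. F-biased genes called higher numbered 19 with Cyp2a4 alone, 70 with Cyp2b9 alone, 82 with the continuous score, 0 in chow, 29 in high fat and 0 in G11L2 mice. M-biased genes called lower numbered 27 with Cyp2a4 alone, 1 in chow, 35 in G11L1 and 4 in G11L2 mice. The diet and label subsets hold fewer mice than the main comparison, each with 11 or 12 males in either score group. Why the counts differ between subsets of like size was not tested. Leaving out each mouse in turn gave 369 to 616 called genes, 34 to 57 F-biased genes higher and 59 to 79 M-biased genes lower.

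The share of calls that were higher was 44.4%, and 60.1% with Cyp2a4 alone, 29% with Cyp2b9 alone, 73.1% in G11L1, 50.3% with median-of-ratios factors and 52.9% with quantile normalization. The test of the diet difference gave 2 genes after either rescaling. A sex difference of at least 2 left 66 F-biased and 82 M-biased genes of 197 and 240 with the cluster included. With the mouse number as a replicate block they numbered 189 and 248.

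Among the genes named with a value, those whose sign reversed had not passed. Sult2a1 was at -0.29 in G11L2, Cidea at -0.35 in chow, Cyp2a12 at -0.047 with Cyp2b9 alone and -0.01 in high fat, and Cyp2b10 at 0.053 with Cyp2b9 alone, 0.63 in chow and 0.36 in G11L2. Cyp2s1 was at -0.013 (quantile), -0.15 (Cyp2b9 alone), -0.0099 (high fat and no generation covariate), -0.024 (G11L1), -0.056 (array weights) and -0.068 to -0.0036 without 1 mouse. Igf1 was at -0.058 (Cyp2b9 alone), -0.0014 and -0.03 (larger shares of mice), -0.026 (rounding up), -0.0298 (high fat), -0.11 (G11L2), -0.0011 (no generation covariate), -0.0103 (coat), -0.017 (array weights), -0.0093 (without pancreas signal) and -0.023 to -0.00036 without 1 mouse. The cause was not tested. Depth limits the lowest genes, and copies that share reads are not separable here.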
